A study of Mus musculus with 8 samples.

Results

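In 4 ATAC-seq peak lists of mouse blood stem and progenitor cells, 2459 stretches of open chromatin were at least 2000 bp wide and were called in every library. Intervals of the lists were pooled without mitochondrial peaks and merged wherever they overlapped by 1 bp or more. This gave 112479 merged regions, of which 45779 were called in all 4 libraries and 2459 (5.37% of those) spanned 2000 bp or more. The intervals themselves chose the members, so spans, summit numbers, enrichment and the bases called open in each list are given as description, without a test. Expression was measured in separate RNA-seq libraries and played no part in the choice.

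The study compared LSK cells (lineage-negative, Sca1-positive, cKit-positive), sorted by FACS from the bone marrow of C57BL/6 mice that were either wild type (WT) or knockout (KO) for Hira. Each genotype had 2 ATAC-seq and 2 RNA-seq libraries. The labels name neither the driver of the deletion nor the ages of the mice, and nothing in them says that the libraries came from separate mice, so any p-value measures the spread between these libraries. Hira RNA was not lower under the Hira KO label: with labels WT 1 and 2 it read 16.5 and 17.2 CPM (counts scaled to the library total), and with labels Hira KO 1 and 2 it read 24.4 and 23.3 CPM (log2 difference 0.50, SE 0.19, edgeR adjusted p = 0.18), and the names of the deposited files carry the opposite genotype. Every group is therefore called "labelled WT" or "labelled Hira KO", and each direction below is drawn from libraries whose genotype is in doubt.

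In ATAC-seq a transposase cuts DNA where nucleosomes are sparse, and a peak caller reports intervals with more cuts than the local background. Most open sites are about as wide as the gap left by one displaced nucleosome, whereas wide sites join several such gaps, typically at promoters of active genes, at clusters of enhancers or along heavily transcribed genes. HIRA is a chaperone that places the histone variant H3.3 on DNA outside replication, above all at active promoters and gene bodies. LSK cells hold the blood stem cells and the earliest multipotent progenitors.

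The promoters under the wide regions were rich in CG. Upstream sequence of 6 of their genes is shown because these genes return in the results: Btg1 and Ier5 (early-response genes, higher in labelled Hira KO), Tgfb1 (a signalling ligand, lower there), Cxcr4 and Itga4 (homing and adhesion receptors of stem cells) and Eef1a1 (the translation elongation factor, among the most abundant RNAs). Each line gives the 250 bases before the gene start, 5′ to 3′ on the gene's strand, from RefSeq on GRCm38.p6. Capitals mark matches, on either strand, to the short motifs whose letters are spelled out with their shares; no motif contains another.
Btg1 (chr10:96616751-96617000, plus strand): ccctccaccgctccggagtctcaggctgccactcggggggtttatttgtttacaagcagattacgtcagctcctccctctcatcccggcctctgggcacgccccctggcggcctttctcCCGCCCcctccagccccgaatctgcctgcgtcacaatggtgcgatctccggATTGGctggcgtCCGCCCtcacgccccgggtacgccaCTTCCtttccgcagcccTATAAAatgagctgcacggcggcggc
Ier5 (chr1:155099637-155099886, minus strand): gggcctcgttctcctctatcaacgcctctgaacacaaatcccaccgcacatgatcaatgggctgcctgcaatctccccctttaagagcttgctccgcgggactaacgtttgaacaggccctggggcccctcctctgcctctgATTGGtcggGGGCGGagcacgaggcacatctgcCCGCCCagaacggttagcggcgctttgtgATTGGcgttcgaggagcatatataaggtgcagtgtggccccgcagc
Tgfb1 (chr7:25686752-25687001, plus strand): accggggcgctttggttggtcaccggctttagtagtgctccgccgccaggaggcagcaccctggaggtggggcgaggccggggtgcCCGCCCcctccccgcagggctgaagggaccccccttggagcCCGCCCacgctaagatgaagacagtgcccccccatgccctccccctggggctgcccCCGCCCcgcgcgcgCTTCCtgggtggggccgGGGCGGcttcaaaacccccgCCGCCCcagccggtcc
Cxcr4 (chr1:128592300-128592549, minus strand): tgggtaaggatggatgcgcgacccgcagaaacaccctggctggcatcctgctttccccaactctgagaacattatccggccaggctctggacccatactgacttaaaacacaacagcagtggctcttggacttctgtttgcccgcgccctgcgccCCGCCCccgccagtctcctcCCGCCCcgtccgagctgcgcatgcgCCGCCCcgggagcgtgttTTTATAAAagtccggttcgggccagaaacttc
Itga4 (chr2:79255176-79255425, plus strand): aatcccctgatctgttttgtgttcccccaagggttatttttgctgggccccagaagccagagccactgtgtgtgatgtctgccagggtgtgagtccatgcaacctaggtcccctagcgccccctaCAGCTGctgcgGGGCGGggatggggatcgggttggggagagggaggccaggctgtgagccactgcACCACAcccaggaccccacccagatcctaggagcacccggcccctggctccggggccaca
Eef1a1 (chr9:78481725-78481974, minus strand): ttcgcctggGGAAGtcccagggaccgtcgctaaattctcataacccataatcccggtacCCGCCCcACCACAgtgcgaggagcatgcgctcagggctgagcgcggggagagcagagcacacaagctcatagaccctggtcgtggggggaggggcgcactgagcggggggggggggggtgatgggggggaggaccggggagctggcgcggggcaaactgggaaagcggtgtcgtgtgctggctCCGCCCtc

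Btg1 held 2 SP/KLF matches, 1 CCAAT, 1 ETS and 1 TATA match, and Ier5 held 2 SP/KLF and 2 CCAAT matches. Tgfb1 held 5 SP/KLF matches and no TATA match, while Cxcr4 paired 3 SP/KLF matches with 2 overlapping TATA matches. Every sequence shown held an SP/KLF match, but other genes of the results that are not shown differed. The 250 bases before Tal1 had 48.8% GC and no match to any motif, and those before Arrdc3 and Dusp6 had no SP/KLF match. Over the 2457 listed promoters of 300 bases (250 before and 50 after the start) whose start lay in a wide region, the median GC content was 65% and the observed-to-expected CpG ratio 0.839. Promoters starting in narrower shared regions had 60.7% and 0.768, and all 32851 listed promoters had 52.7% and 0.384. SP/KLF letters (GGGCGG) were found in 73.3% of the promoters in wide regions, against 64.2% in narrower shared regions and 35.7% of all. TATA letters (TATAAA) were found in 5.7%, 5.95% and 13.6%, in the same order. RUNX letters (TGTGGT) were found in 8.51%, 13.1% and 16.8%. ETS letters (GGAAG) had shares of 72.9%, 76.9% and 71.4%, and the letters CCAAT 40.5%, 38.1% and 37.4%. A GATA match (AGATAAG) was in 1.63% against 3.04% of all promoters, and an E-box (CAGCTG) in 12.8% against 16.3%. A CRE (TGACGTCA) was in 2.77% against 1.79%. An AP-1 match (TGANTCA) was in 3.7% against 7.81%. A GC-rich motif is found more often in GC-rich promoters whatever binds there, and the matches are letters only.

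The wide regions together spanned 6.82 Mb. Their median span was 2463 bp (quartiles 2190 and 2934 bp), 564 reached 3000 bp, 73 reached 5000 bp and 5 reached 10000 bp. The threshold fell on a smooth slope: 443 shared regions lay within 100 bp below it and 348 within the first 100 bp from it upward. Just inside it, at 2000 bp, lay a region in Syne1 (3, 3, 1 and 3 summits in labelled WT 1 and 2 and labelled Hira KO 1 and 2) and one at Cct2 (3, 2, 3 and 2 summits). Just outside, 1 bp short of it, lay a region at Nsd2 (3, 3, 2 and 3 summits) and one at Tshz1 and Zadh2 (3 in each list). Their top fold enrichments were 74.1, 42.3, 38.9 and 43.6 at Syne1 and 31.4, 25.9, 30.8 and 32.6 at Nsd2, inside and outside the threshold.

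Inside a wide region each list gave several summits, the points of highest cut density. The median region held 3.25 summits per library, against 1 in the narrower shared regions. When summits of the 4 lists within 100 bp were joined, the median was 5 positions, again against 1. Per kilobase of span the wide regions held fewer summits (1.33) than the narrower ones (1.83). Labelled WT 1 gave a median of 4 summits and the other lists 3 each.

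The 4 lists drew the same stretches in different ways. Labelled WT 1 covered 81.4% of the wide regions with 1 unbroken interval, labelled Hira KO 1 covered 54.8%, labelled WT 2 40.1% and labelled Hira KO 2 39.5%. The median share of the span called open was 98%, 78.5%, 87.8% and 76% in labelled WT 1, labelled WT 2, labelled Hira KO 1 and labelled Hira KO 2. Replicate 1 of both labels was therefore the more continuous one. Labelled WT 1 had an interval of 2000 bp or more of its own in 1967 of the regions, labelled WT 2 in 618, labelled Hira KO 1 in 1103 and labelled Hira KO 2 in 536. In 298 regions every list held such an interval, and in 307 no list did, so that only their union reached the threshold. Leaving labelled WT 1 out of the merge left 1574 wide regions called in the other 3 lists, whereas leaving out any other library left 2206 to 2397. Labelled WT 1 and 2 listed 79565 and 63422 peaks, labelled Hira KO 1 and 2 listed 92839 and 73715, and the read depth behind them is unknown.

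The wide regions were also the tallest. The median of the highest fold enrichment over the peak caller's background was 72.4, 50.9, 61.3 and 52.5 in the 4 lists, against 11.2, 9.19, 11.4 and 11 in narrower shared regions. Within its own list the median wide region ranked at the 92.7th to 95.1th percentile. They made up 11.9% to 16.3% of all bases listed as open.

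**Figure D1:**
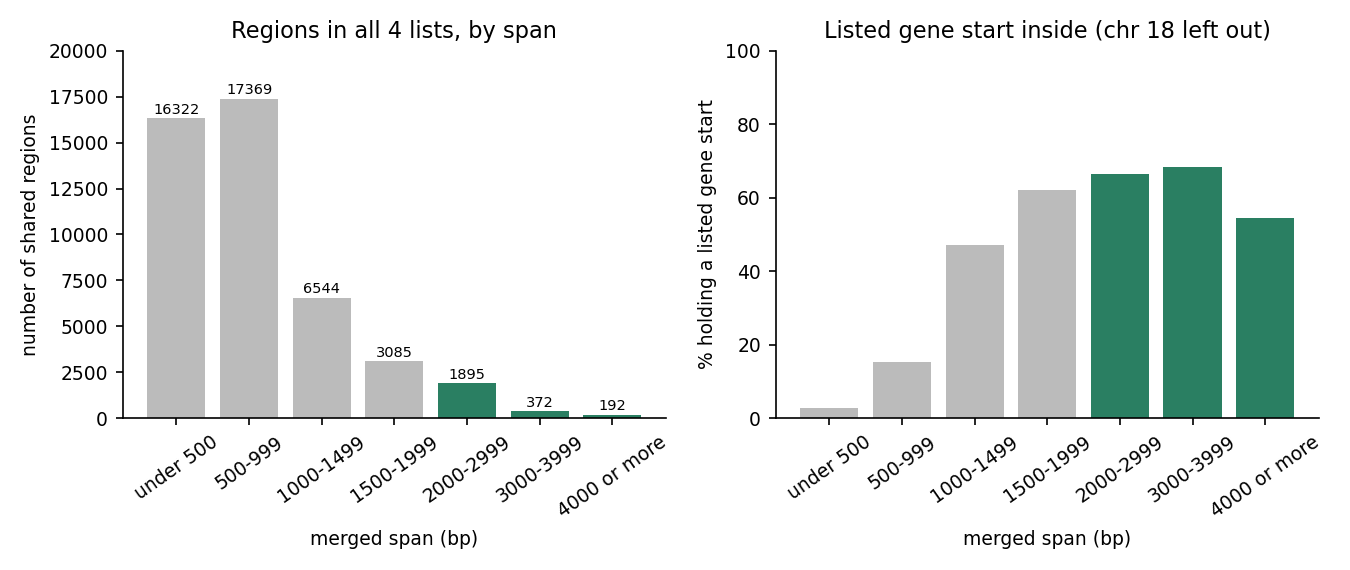
Left: number of regions called in all 4 lists by merged span (bp); right: percent of regions outside chromosome 18 that hold a listed gene start. Grey bars are narrower shared regions and green bars the wide ones; the share with a start climbs from 2.63% under 500 bp to 68.4% at 3000 to 4000 bp and is 54.5% at 4000 bp or more.

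Gene starts lay in most wide regions. The promoter table has no entry for chromosome 18 and is not complete, so shares refer to listed starts outside that chromosome. Of 2395 wide regions there, 1574 (65.7%) held at least 1 listed start, against 18.6% of the narrower shared regions. Starts of 2 or more genes lay in 439 (18.3%, against 2.74%), and starts on both strands in 422 (17.6%, against 2.65%). The share with a start climbed with span through the narrower classes and was lower again among the 192 regions of 4000 bp or more, where 54.5% held one. A gene body was overlapped by 94.8% of wide regions and 74.4% of narrower ones, and 128 wide regions lay over no annotated gene. A longer stretch has more room for a gene, so these shares describe the members and are not a test.

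Around a single start the opening ran further into the gene than away from it. Among the 949 wide regions with 1 listed start, the region reached a median of 1077 bp upstream and 1390 bp downstream, and 64.3% reached further downstream. Narrower shared regions with 1 start showed the same lean at a smaller scale (430 and 590 bp, 63.2% further downstream). The highest summit lay within 250 bp of the start in 72.3%, 70.2%, 74.7% and 72.3% of these regions in labelled WT 1 and 2 and labelled Hira KO 1 and 2, and its median position was 66 to 72 bp before the start in every list. Of all summits, 27.4% lay within 250 bp of the start, 28.8% further upstream and 43.8% further downstream. The typical wide promoter region thus had its highest summit just before the start, and more summits lay further downstream than further upstream.

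**Figure D2:**
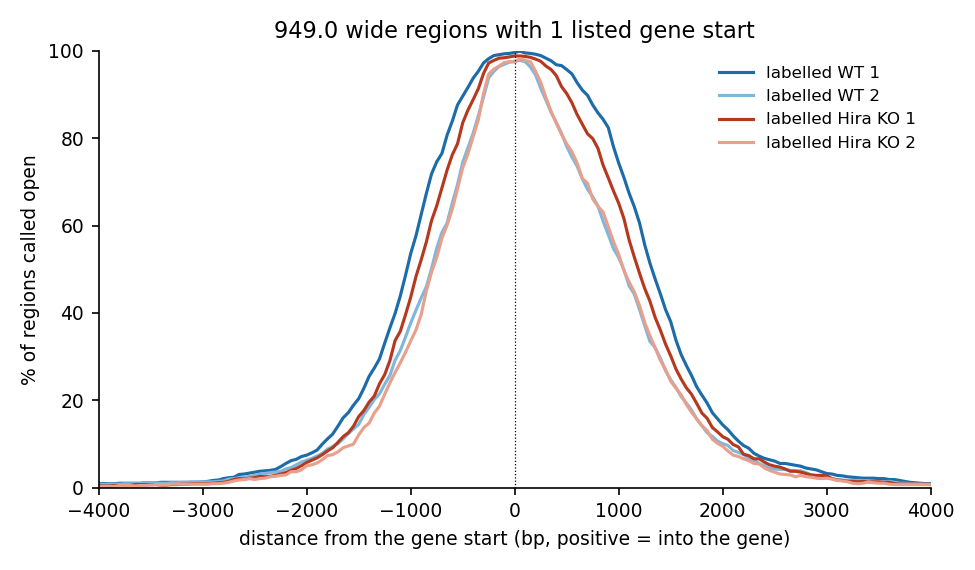
Percent of the 949 wide regions with 1 listed gene start that each list called open, by distance from the start (bp; positive values run into the gene); each line is 1 library. All lines peak at the start and lean into the gene; labelled WT 1 is the widest, then labelled Hira KO 1, while labelled WT 2 and labelled Hira KO 2 nearly coincide.

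The widest members were long runs of summits. The largest, chr9:2999853-3038410 (38558 bp), covered no annotated gene, held 68, 70, 69 and 72 summits and reached fold enrichments of 602, 1161, 791 and 1088. The next 3 lay side by side on chromosome 11 between 3122104 and 3200076, over Sfi1 (a centriole protein) and the pseudogene Pisd-ps1, with 36 to 54 summits per list. All 4 lists called most of the length of these regions. No filter for repeated sequence was applied here, and whether reads of these regions map to a single place was not examined. A region of 11794 bp over Mid1 (a microtubule-bound ubiquitin ligase) on the X, one of 9408 bp at Rbm38 (an RNA-binding protein) and one of 8888 bp in Zfpm1 (FOG1, the partner of GATA factors) followed. Zfpm1, Dapp1 and Gse1 each lay under 5 wide regions, the most of any gene. In Zfpm1 the region over its listed start (chr8:122280408-122287686) had 7239, 5741, 6655 and 5769 bases called open in labelled WT 1 and 2 and labelled Hira KO 1 and 2. The region deeper in the gene (chr8:122304761-122310302) had 5542, 4422, 1580 and 1913, so there, but not at the start, both labelled WT lists were longer.

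Wide regions were most frequent among the shared regions of the Y chromosome, 9 of 30 (30%), against 3.91% to 6.31% on the other chromosomes. All 9 lay above 90 Mb. Labelled Hira KO 1 had the fewest bases called open at 8 of the 9, and also at Erdr1 on the X. At chrX:170010547-170018236 over Erdr1 the lists called 7690, 7513, 410 and 7599 bases open. At chrY:90785458-90792890, which covers no gene, they called 7433, 7291, 768 and 7292 bases. In both, labelled Hira KO 1 alone was short. Their top fold enrichments were also close, 26.9, 54.5, 4.2 and 15.8 at Erdr1 and 27.1, 55.1, 4.66 and 17.5 on the Y. So were those of the Mid1 region on the X (188, 187, 78.3 and 279) and of chrY:90768855-90776086 (183, 202, 73 and 279). Whether these stretches of X and Y share sequence was not examined. They may not be separate observations, and the 30% may not be a trait of the Y alone. Below 90 Mb all lists held Y peaks, 31, 31, 24 and 28 of them.

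The wide regions overlapped 3149 RefSeq genes, 2455 of them protein-coding (11.2% of coding genes), 473 long noncoding RNA genes and 93 of 408 tRNA genes (22.8%). RNA values were found for 2713, of which 2390 are coding. In TPM, the share of transcripts corrected for gene length, which allows genes to be compared, the covered coding genes had a median of 13.3 in labelled WT (mean of its libraries; quartiles 5.41 and 29.6). Coding genes under narrower shared regions alone had 5.54, and those under none had 0. The order was the same in every library: 14.9, 11.3, 14 and 10.3 TPM for wide regions and 6.22, 4.68, 5.93 and 4.31 for narrower ones in labelled WT 1 and 2 and labelled Hira KO 1 and 2. At least 1 TPM was reached by 93.7% of covered coding genes, against 74.6% under narrower regions and 8.13% under none. At least 100 TPM was reached by 6.78%, 1.75% and 0.207%. Of the 100 most abundant coding genes 44 lay under a wide region, and the share declined in each lower rank class to 2.24% beyond rank 10000.

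Within the members, width and level were only weakly related. The median was 12.2 TPM for genes whose largest region spanned 2000 to 2500 bp, 13.4, 15.3 and 14.4 in the next wider classes and 25.2 for the 35 genes with the widest regions. Across the 2390 genes, which share libraries and are not independent, Spearman's rho between largest span and TPM was 0.08. The 162 coding genes under several wide regions had a median of 21.3 TPM. The highest levels in labelled WT were those of Rpl41 (a ribosomal protein, 2525 TPM), Eef1a1 (2264), Atp5b (a subunit of ATP synthase, 1849), Gapdh (a glycolytic enzyme, 1694), B2m (the light chain of MHC class I, 1570) and Hsp90aa1 (a heat shock chaperone, 1319). At the other end Mip (a lens water channel), Cnga4 (an olfactory ion channel), Asmt (the last enzyme of melatonin synthesis) and Mfsd13b were listed at 0 in both labelled WT libraries. The region at Mip also covers Timeless, and the one at Mfsd13b also holds the listed start of Cdr2.

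**Figure D3:**
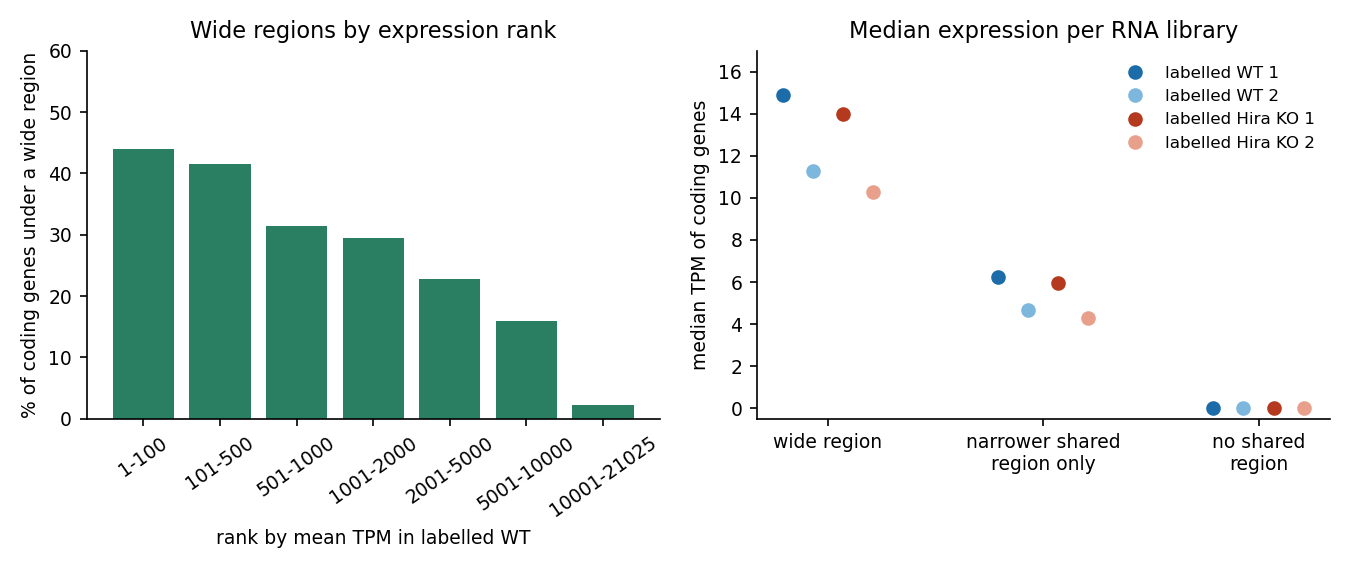
Left: percent of coding genes under a wide region by rank of mean TPM in labelled WT; right: median TPM of coding genes in each RNA library (1 point per library) by the kind of shared region over the gene. The share falls from 44% in the top 100 to 2.24% beyond rank 10000, and in every library genes under wide regions have the highest median.

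Between the labels, few covered genes were called. With 2 libraries per label, a gene that was not called may still differ. In the edgeR test over all 16258 genes, 292 were called (1.8%), 214 higher in labelled Hira KO (1.32%) and 78 lower (0.48%). Of 2456 covered genes tested, 24 were called higher (0.977%) and 20 lower (0.814%), while 641 had an unadjusted p under 0.05 in edgeR. The median log2 difference of covered genes was -0.08 and 42.8% lay above 0, while all tested genes with a position had a median of -0.02. Without labelled WT 1, and likewise without labelled WT 2, edgeR called 0 covered genes (252 and 247 had an unadjusted p under 0.05). DESeq2 called 222 of the covered genes, 95 higher and 127 lower. Counts by looser rules in the gene lists are to be read against all genes: 3703 of 16258 (22.8%) had an unadjusted p under 0.05 in edgeR, DESeq2 called 7.78% of the genes it gave an adjusted p, and limma on log2(TPM + 1) called 3.36%. Likewise, 11.2% of all coding genes lay under a wide region, the share against which a list's coverage stands.

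Regulators of blood stem cells were covered unevenly. Of 22 transcription factors of stem cells 7 lay under wide regions: Tal1 and Lyl1 (basic helix-loop-helix factors), Lmo2 (their LIM-domain partner), Runx1, Etv6 (an ETS repressor), Prdm16 and Bmi1 (a Polycomb subunit). Tal1 carried a region of 5007 bp over its listed start (chr4:115055993-115060999) with 4727, 4512, 3778 and 4225 bases called open and 9, 8, 6 and 6 summits. Tal1 RNA read 66.2, 71.1, 64.4 and 45.3 CPM in the same order. Both labelled Hira KO libraries were the lower, the first of them only slightly. EdgeR called 0 of the 7 covered genes, although 4 had an unadjusted p under 0.05 and DESeq2 called 2. Of the 14 tested list members outside wide regions edgeR called 5 higher in labelled Hira KO and 0 lower (all genes 1.32% and 0.48%). Among 23 lineage-choice factors 5 were covered: Nfe2, Ikzf1, Cebpb, Bcl11a and Myb, 0 called by edgeR (2 with an unadjusted p under 0.05) or DESeq2. Outside wide regions edgeR called 1 of 17 tested higher and 0 lower. Ikzf1, the Ikaros factor of lymphoid development, lay under 3 wide regions and was abundant at 438, 431, 422 and 395 CPM. Cebpb, a myeloid factor, was covered by 4032 bp yet stood at 0.159, 0.547, 1.14 and 2.34 CPM, so a wide region did not go with a high level there.

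Of 22 receptors 3 (13.6%) were covered: Cxcr4 (the CXCL12 receptor), Itgb1 and Itga4 (the chains of the VLA-4 integrin). The list's median was 27.3 TPM, and 29.5% of coding genes at ranks 1001 to 2000 (27 to 45.3 TPM) were covered. Of the 3 receptors 0 were called by edgeR (1 with an unadjusted p under 0.05) or DESeq2. Kit, Flt3, Cd34 and Ly6a, which define or mark these cells, lay outside wide regions, as did all 31 Hox genes of the list. Of the 19 receptors outside, edgeR called 5 higher in labelled Hira KO, Flt3 and Ly6a among them, and 1 lower. Over all genes 1.32% were called higher and 0.48% lower. Of 13 Hox genes tested 1 was called higher. Of 31 chromatin regulators 14 were covered, among them Chd4, Asxl1, Tet2, Tet3, Kmt2a, Dnmt3a, Ezh2, Daxx and Hira itself. EdgeR and DESeq2 called 0 of the 14, and 2 had an unadjusted p under 0.05. Of the 17 regulators outside wide regions edgeR called 2 higher and 0 lower. The Hira region (chr16:18876178-18878384, 2207 bp) holds the listed starts of Hira and of its neighbour Mrpl40 and had 2137, 2103, 2147 and 2173 bases called open, all within 70 bp of each other.

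Early-response genes were the list with the most calls among covered members. They encode factors that cells induce within minutes of a stimulus and that need no new protein. Of 28 on the list, 19 (67.9%) lay under wide regions; 5 of these 19 were called higher, none lower, and their median log2 difference was 2.16. With an unadjusted p under 0.05 there were 17 of the 19 (all genes 22.8%). DESeq2 called 16 (all genes 7.78%) and limma on log2(TPM + 1) 13 (all genes 3.36%). The 8 tested list members outside wide regions had a median of 2.86, 1 of them called higher, so the shift was not particular to the covered ones. Ier2, a nuclear regulator, read 7.57 and 6.24 CPM with the WT label and 26.2 and 48.1 CPM with the Hira KO label (log2 difference 2.43, SE 0.33, edgeR adjusted p = 0.0336). Both labelled Hira KO libraries lay above both labelled WT libraries. Ier5, a regulator of heat shock factor, had 6.3 and 3.67 against 18.3 and 26.1 CPM (2.16, SE 0.34, edgeR adjusted p = 0.037). Ppp1r15a, the GADD34 subunit that ends the integrated stress response, had 13.5 and 11.2 against 37.2 and 72.3 CPM (2.15, SE 0.33, edgeR adjusted p = 0.0421). In each of these, as in Btg1 (an antiproliferative factor, 28.2 and 20.6 against 63.6 and 111 CPM), the groups did not overlap and labelled Hira KO 2 was the highest. They are named because they were called, so the gap between groups is not separate support. The remaining call was Zfp36l2, an mRNA decay factor, at 143 and 115 against 224 and 264 CPM.

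Jun, an AP-1 subunit under a region of 7123 bp, did not pass the threshold. Its libraries read 44.7, 39.4, 196 and 581 CPM in labelled WT 1 and 2 and labelled Hira KO 1 and 2, with an edgeR adjusted p of 0.0956. The labelled Hira KO libraries lay above the others but far apart. Its region (chr4:95047118-95054240) had 6257, 4956, 7075 and 5360 bases called open, and that of Jund (chr8:70697970-70705263) had 5440, 3337, 7136 and 4830. Labelled Hira KO 1 was the longest at both, and the groups overlapped. At Btg1 (2608, 2513, 2799 and 2512 bases) and Ier5 (2820, 2700, 2814 and 2732) the lists were nearly equal, although the RNA of both genes was called higher.

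Outside that list the largest rises among called genes, taken where the average log2 CPM reached 3, were those of Zbtb20 (a zinc finger repressor; 148 and 128 against 366 and 394 CPM), Arrdc3 (an arrestin-like adaptor; 17 and 14.6 against 36.8 and 64.9), Hist1h2bc (a histone H2B; 5.56 and 4.87 against 15.6 and 15.9) and Dnajb4 (an HSP40 cochaperone; 15.5 and 20.1 against 40.4 and 55.6). Mef2c, Sox4 and Smarca2, regulators of lymphoid development, of progenitors and of chromatin remodelling, were also called higher, Mef2c at 240 and 202 against 445 and 540 CPM; these were picked from the called genes after their values were seen. The largest falls by the same rule were those of Adgrl1, a latrophilin receptor, at 93.8 and 83.9 against 32.8 and 27.3 CPM (log2 difference -1.56, SE 0.17, edgeR adjusted p = 0.018), and of Emilin2 (an extracellular matrix protein; 24.1 and 27.1 against 9.43 and 8.78) and Cecr2 (a bromodomain protein; 88.8 and 78.6 against 31.4 and 33.5). Srm (spermidine synthase; 105 and 101 against 52.1 and 46.3), Tgfb1 (72.1 and 71.7 against 37.5 and 37.1), Hspd1 (the mitochondrial chaperonin HSP60; 217 and 236 against 126 and 112), Apeh and Necap2 made up the rest. The groups did not overlap in any of these genes by CPM, although by TPM those of Apeh and Smarca2 did. All were taken from the called genes, so the gap by CPM is not separate support. The region at the shared promoter of Hspd1 and Hspe1 had 2237, 1382, 2141 and 2064 bases called open, and that at Tgfb1 2473, 2261, 2402 and 2416, in neither case shorter in both labelled Hira KO lists than in both others.

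**Figure D4:**
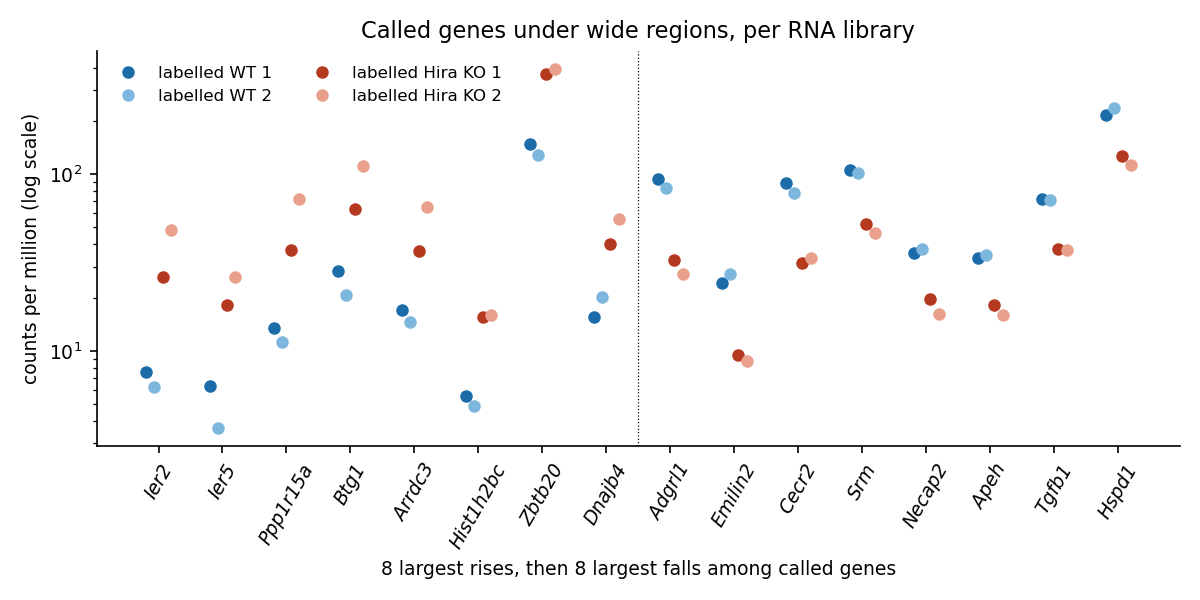
CPM (log scale) of the 8 covered genes with the largest rise and the 8 with the largest fall among called genes, 1 point per RNA library. In every gene both labelled Hira KO libraries lie on the same side of both labelled WT libraries. The genes were chosen by their calls and size of change, so this gap is not separate support.

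Replication-dependent histone genes, which are packed into clusters and transcribed in S phase, were nearly all covered: 16 of 18 (88.9%). The widest of these regions, chr13:23570136-23577688 (7553 bp), holds 5 listed starts of H2A, H2B and H3 genes and had 7523, 7239, 7303 and 6400 bases called open. Of 15 covered histone genes tested, 1 was called higher (Hist1h2bc) and 1 lower (Hist2h3c2, an H3 gene, at 15.1 and 12.3 against 2.59 and 1.08 CPM), with a median log2 difference of -0.66. Near-identical copies and the lack of a poly(A) tail in most of their RNAs make single histone values uncertain.

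Further lists were covered in part. Of 23 RNA-binding and splicing genes 13 lay under wide regions, among them Hnrnpa1, Ddx5 and Srsf2, and 0 were called by edgeR (3 with an unadjusted p under 0.05) or DESeq2. Of 27 feedback genes of NF-kappaB, TGF-beta and PI3K signalling 11 were covered, among them Dusp6 (a phosphatase of ERK), Socs1 and Smad3. EdgeR called 0 (3 with an unadjusted p under 0.05), DESeq2 1 and limma 2. The 4 long noncoding RNAs covered of 11 were Neat1, Malat1, Gas5 and Snhg12, with 0 called by edgeR (2 with an unadjusted p under 0.05) and 1 by DESeq2. Malat1 read 1541, 1618, 2628 and 4064 CPM (edgeR adjusted p = 0.0719). Neat1, the scaffold of paraspeckles, read 83.5, 72.4, 146 and 386 CPM (edgeR adjusted p = 0.152). The groups did not overlap in either, but the share of all genes for which that holds is not given here. Of 20 interferon-stimulated genes 3 (15%) were covered, among them Irf2 and Irf7, with 0 called by edgeR (2 with an unadjusted p under 0.05) and 1 by DESeq2. Outside wide regions edgeR called 6 of 16 tested members higher in labelled Hira KO and 0 lower (all genes 1.32% and 0.48%). Of 21 ribosomal protein genes on the list 9 (42.9%) were covered, near the 44% of the 100 most abundant coding genes. Of the 9, 0 were called by edgeR (0 with an unadjusted p under 0.05) or DESeq2.

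Markers of other marrow cells were covered in 5 of 60 cases (8.33%, against 11.2% of all coding genes). At the ranks of the lists' median levels (4.45 to 160 TPM) the shares of coding genes were 15.9% to 41.5%. Covered were 0 of 16 lymphoid and plasma cell markers and 0 of 15 endothelial, stromal and megakaryocyte markers. Also covered were 1 of 14 granulocyte and monocyte markers (Fcgr3) and 4 of 15 erythroid and mast cell markers (among them Car2, Hba-a1 and Hbb-bt). EdgeR (1 with an unadjusted p under 0.05) and DESeq2 called 0 of these 5. Levels in the libraries showed that such RNA was present: Elane, of granulocyte precursors, stood at 247, 113, 101 and 25.4 CPM, and Jchain, of plasma cells, at 13.1, 7.17, 192 and 125 CPM, beside 274, 351, 330 and 327 CPM of Kit and 10.3, 8.86, 23.1 and 33.6 CPM of Ly6a, which encodes Sca1. Among tested genes of these lists, edgeR called 1 of 16 lymphoid and plasma cell markers higher in labelled Hira KO (Jchain). Of 14 endothelial, stromal and megakaryocyte markers 4 were called lower and 1 higher. Of 13 granulocyte and monocyte markers 1 was called higher and 1 lower, and of 15 erythroid and mast cell markers 0 were called. Summed over each list, in labelled WT 1 and 2 and labelled Hira KO 1 and 2, granulocyte and monocyte markers came to 5600, 2830, 2670 and 1290 TPM and erythroid and mast cell markers to 882, 841, 641 and 239 TPM. Lymphoid and plasma cell markers came to 742, 408, 614 and 383 TPM and the endothelial, stromal and megakaryocyte list to 169, 83, 201 and 140 TPM. Both myeloid and erythroid sums were lower in the labelled Hira KO libraries, and no marker was at 0 in all 4. Their part in the differences above was not tested, and in bulk samples fewer cells of a type and less RNA per cell cannot be told apart.

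The bases called open in each list helped to choose the members, because a region that is long in 1 label alone can still reach the threshold, so the counts by label describe these members only. Over all 45779 shared regions, both labelled Hira KO lists had fewer bases called open than both labelled WT lists in 16.8%, and more in 17.1%. Among the wide regions, 617 (25.1%) had fewer and 59 (2.4%) had more. The split by replicate number was larger: both replicate 1 lists were longer than both replicate 2 lists in 1502 wide regions and shorter in 11. With bases scaled to each library's total over shared regions the split by label was 756 with fewer and 280 with more. Where a listed gene start lay inside, 269 of 1574 (17.1%) had fewer and 36 (2.29%) more, against 9.76% and 11.7% of the narrower shared regions with a start. The split was wider in the 307 wide regions that overlapped a gene without holding a listed start, where 167 (54.4%) had fewer and 6 (1.95%) more. Such regions are called inside a gene here, but any overlap counted. Some, as at Rps9 and Rps19, lay mostly beyond the gene. Narrower shared regions inside a gene were evenly split, 3360 (19.2%) with fewer and 3310 (18.9%) with more. In the 307 wide regions the median covered length was 2409 and 1970 bp in labelled WT 1 and 2 and 1889 and 1688 bp in labelled Hira KO 1 and 2. In the 126 wide regions outside chromosome 18 over no gene, 60 had fewer and 0 had more.

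At abundant genes, away from listed starts, the gap was wider. Of the 31 wide regions that overlapped genes of at least 100 TPM and held no listed start, 26 had fewer bases called open in both labelled Hira KO lists. In 15, each of those lists had fewer than 0.5 times the shorter labelled WT list. The median covered length of the 31 was 2829 and 2309 bp in labelled WT against 1447 and 1317 bp in labelled Hira KO. Narrower shared regions inside such genes had fewer in 22.7% and more in 15.3%. At gene starts of equally abundant genes (126 regions) the medians were 2506, 2077, 2273 and 2051 bp, and 19 had fewer. Regions that also held the far end of the gene showed fewer in 37 of 51. In the span class just below the threshold (1000 to 2000 bp) 34% of regions inside genes had fewer and 8.23% more, and of those with a start 11.2% had fewer and 7.81% more.

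**Figure D5:**
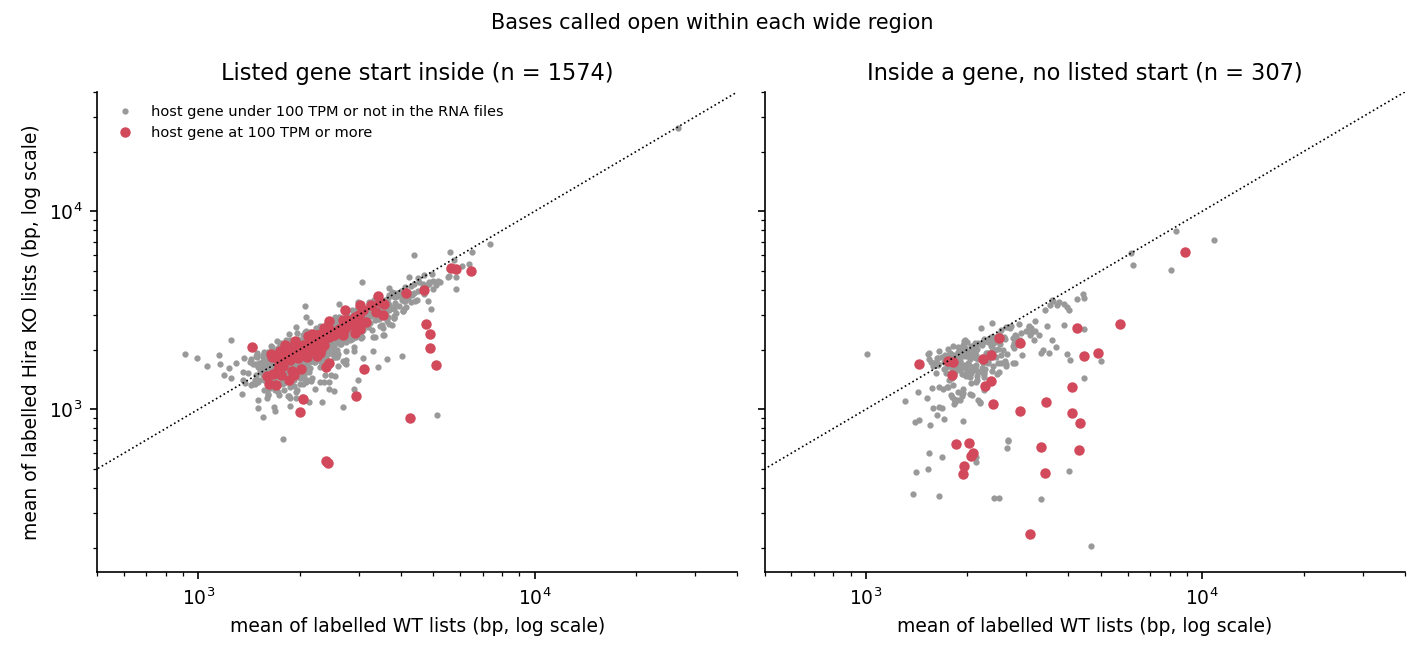
Bases called open in each wide region outside chromosome 18: mean of the labelled WT lists (x) against mean of the labelled Hira KO lists (y), in bp on log scales; 1 point per region, red where the host gene reaches 100 TPM in labelled WT, dotted line at equality. Regions holding a gene start (left, 1574) follow the line. Many regions inside a gene (any overlap without a listed start, right, 307), red ones above all, fall well below it.

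At 60 wide regions both labelled Hira KO lists fell short of 0.5 times both labelled WT lists, and at 0 did the reverse hold. Most of the length of the 60 was thus called in labelled WT. As stated above, these lengths helped to choose the members, so the counts describe them and are not a test. Among the narrower shared regions the same was seen at 106, and the reverse at 69. Of the 60 wide regions 13 lay over ribosomal protein genes, which encode the protein parts of the ribosome. At Rpl27a (chr7:109522252-109527203) the lists called 4395, 4952, 200 and 207 bases open. The labelled Hira KO lists held 1 summit each there, and the labelled WT lists 6 and 8. At Rps20 (chr4:3828423-3832572) they called 2586, 4031, 372 and 239 bases, and at Rps19 (chr7:24888592-24892341) 3404, 3208, 553 and 731. At Rpl3 (chr15:80074602-80081284) they called 6587, 5901, 1944 and 1936. RNA levels of these 4 genes overlapped between the groups: Rpl27a stood at 109, 91.1, 117 and 77.5 TPM, Rps20 at 940, 733, 803 and 798, Rps19 at 486, 341, 445 and 408 and Rpl3 at 397, 285, 337 and 307 TPM.

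Of the 67 coding genes under the 60 regions, 25 (37.3%) reached 100 TPM in labelled WT, and the others were less abundant. At Ncl, which encodes the nucleolar protein nucleolin, one region (chr1:86346898-86350289) had 2861, 3279, 237 and 233 bases called open. At Rack1, a ribosome-bound scaffold protein (chr11:48804597-48808191), it was 3351, 3447, 573 and 383. At Nop56, a component of snoRNA particles (chr2:130277985-130282431), it was 4263, 4353, 625 and 619. At Car2, the carbonic anhydrase of red cell precursors, 3 wide regions differed: chr3:14900639-14907961 had 7323, 6225, 510 and 760 bases, chr3:14888993-14892184 had 3189, 2634, 2070 and 2587, and chr3:14885987-14888835 had 2849, 2207, 2375 and 2279. Actb, the cytoskeletal actin, had 7371, 5888, 2723 and 1252 bases at chr5:142896103-142903557 and 3456, 2307, 3271 and 2375 at chr5:142905014-142908516. Eef1a1 had 5822, 5583, 3900 and 1483 bases at chr9:78473297-78479385 and 1889, 1736, 1929 and 1962 over its start. For each of these 3 genes the widest region was shorter in both labelled Hira KO lists, and at least 1 other region of the gene was not. Those widest regions overlapped only 1 end of the gene and lay mostly beyond it. Car2 spans 14886269-14900770, Actb 142903115-142907976 and Eef1a1 78478453-78481724. The widest region at Actb also overlaps Fbxl18, and that at Eef1a1 also overlaps Mto1.

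All 31 wide regions over 29 of the 84 cytosolic ribosomal protein genes, a family singled out after its values were seen, can be counted the same way, again as description only. In 20 of them both labelled Hira KO lists had fewer bases, in 0 more, and the median covered length was 3076, 2967, 1903 and 1555 bp. In the 92 narrower shared regions over this family 18 had fewer and 5 more. Of the 29 genes all were tested and 0 were called by edgeR (3 with an unadjusted p under 0.05) or DESeq2, with log2 differences from -0.41 to 0.53 and a median of 0.02. Over the 60 regions as a whole, 67 coding genes were covered and 62 tested. Of these edgeR called 0 higher and 1 lower (Gas2l1), with a median log2 difference of -0.09 (quartiles -0.45 and 0.07).

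Labelled WT 1 has the largest median covered length of the 4 lists. Leaving it out of the comparison kept the members that were merged and chosen with it, so its part in the choice was not tested. Without labelled WT 1, 167 of the 307 regions inside genes had fewer bases in both labelled Hira KO lists than in labelled WT 2 and 67 had more. Over all wide regions the same comparison gave 624 with fewer and 1029 with more, so there the lean turned. On autosomes alone the counts inside genes were 164 with fewer and 6 with more. Library preparation, depth and label cannot be told apart with 2 lists each.

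Genes of small RNAs lay in some of the wide regions. A tRNA gene lay in 37 wide regions (1.5%, against 0.295% of the narrower ones) and a snoRNA gene in 18 (0.732%, against 0.108%). The densest, chr19:12008535-12012788, held 6 tRNA genes and had 4254, 3535, 3851 and 3268 bases called open, and a run on chromosome 1 held 5 tRNA genes in each of 3 regions. A microRNA gene lay in 29 wide regions. For 4 of these regions the microRNAs are shown, because the lists split by label at one of them and not at the others, as mature sequences from RefSeq (GRCm38.p6), 5′ to 3′, with the seed (bases 2 to 8) in capitals; miR-142 belongs to blood cells in general, miR-144 and miR-451a to developing red cells, and let-7i to the let-7 family.
miR-142a-5p (chr11:87756867-87756887, plus strand): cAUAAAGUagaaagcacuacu
miR-142a-3p (chr11:87756903-87756925, plus strand): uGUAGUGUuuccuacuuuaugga
miR-144-3p (chr11:78073047-78073066, plus strand): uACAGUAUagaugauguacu
miR-451a (chr11:78073186-78073207, plus strand): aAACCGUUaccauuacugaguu
miR-191-5p (chr9:108568325-108568347, plus strand): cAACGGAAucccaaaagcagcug
miR-425-5p (chr9:108568789-108568811, plus strand): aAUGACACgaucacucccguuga
let-7i-5p (chr10:122985698-122985719, minus strand): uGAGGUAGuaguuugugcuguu

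The 50 mature sequences encoded in wide regions had 50 different seeds, so no seed was shared. The Mir142 region (chr11:87756202-87761077, 4876 bp) had 4763, 3895, 4061 and 3788 bases called open in labelled WT 1 and 2 and labelled Hira KO 1 and 2. The region of Mir144 and Mir451a (chr11:78071713-78076022, 4310 bp) had 4227, 3668, 1726 and 2086. At the red cell microRNAs both labelled Hira KO lists were thus shorter, while at Mir142 the groups overlapped in length. The Mirlet7i region (chr10:122985116-122988808) had 3559, 2685, 2867 and 2154 bases and that of Mir191 and Mir425 (chr9:108565880-108568898) 2966, 2321, 2459 and 1811, with overlapping groups in both. As given above, the summed RNA of erythroid and mast cell markers was also lower in labelled Hira KO, although edgeR called 0 of the 15 markers. Its part in these lengths was not tested. MicroRNA levels were not analysed here.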

How the data were processed

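The samples were 4 ATAC-seq and 4 RNA-seq libraries of sorted mouse LSK cells, grouped and numbered by their titles. The members and all gene lists were chosen with earlier results of these data known. The submitters' processing notes list, with no role for each, RSEM 1.3.0, STAR 2.5.3a, HTSeq, DESeq2, MACS2 2.1.1, Bowtie2 2.2.9, Trim Galore 0.4.5 and bedtools, on GRCm38. Transposase offsets and strand of the RNA libraries are not given in the sources used here.

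Each deposited peak list was called per library and gives the authors' ratio of signal to background (fold enrichment), their -log10 p-value and -log10 q-value, a score that equals the -log10 q-value on a coarser scale, and a summit offset. A list may repeat an interval with several summits; each was counted once. Fold enrichments of different lists stand side by side without a reading of their difference, since depth is unknown. The RNA files hold the authors' expected counts and TPM per gene, per the file headers.

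Expected counts, with library totals of 16.6 to 19.8 M, were rounded and fitted by edgeR 4.0.16 under R 4.3.3 (TMM, filterByExpr, quasi-likelihood F test, Benjamini-Hochberg adjustment, called below 0.05). The SE is the log2 difference divided by the root of F. CPM use TMM-scaled totals. The script was checked on simulated data. Gene bodies came from RefSeq (GRCm38.p6), matched by symbol or synonym for 34326 of 45706 gene IDs, and starts from its promoter table, which lists 2124 of the covered genes. Kinds of region and the ribosomal family, and the CRE, CCAAT and AP-1 motifs, were added after the data were seen. The labels name no batch.

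Named were the 12 widest regions outside chromosome 18, the 6 with most summits, up to 4 covered genes per list by span, the 8 largest rises and falls among called covered genes with average log2 CPM of at least 3, the 6 highest and 4 lowest covered coding genes by TPM, the 2 regions on either side of the threshold and the 3 widest without a gene. Genes and regions beyond these were picked after their values were seen. Alternatives were other span, q-value and overlap thresholds, other gene assignments, DESeq2 1.42.0, limma 3.58.1 on log2(TPM + 1) and log2(TPM + 0.1) over genes with a mean of at least 1 TPM, other normalization and filters, a replicate block and leaving out each library.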

Additional observations from a re-analysis of the deposited data

How the results depend on the processing

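The number of wide regions was 5544 at 1500 bp, 564 at 3000 bp and 298 when every list had to hold an interval of 2000 bp or more; leaving out a library gave 1574 (labelled WT 1) to 2397. With a -log10 q of 10, an overlap of 100 bp or the widest single interval it lay between 2152 and 2395. The median number of summits was 5 with summits joined, 2.5 at 1500 bp and 5 at 3000 bp. Covered genes numbered 2015 by listed start, 6317 at 1500 bp and 831 at 3000 bp. Their median labelled WT level over all biotypes, 11 TPM, was 13.3 for coding genes and 13.2 at 3000 bp; leaving out a labelled WT library gave 9.62 to 12.5.

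Calls moved more. Against 292 genes in all and 44 covered ones, DESeq2 called 1281 and 222, no count filter 2223 and 409, limma 500 and 70 (pseudocount 1) or 476 and 71 (pseudocount 0.1), and the replicate block 537 and 74. Leaving out a library gave 2 to 3545 genes in all and 0 to 722 covered ones, the lowest without a labelled WT library and the highest without labelled Hira KO 1; the lone library is then assumed to vary like the others. Of the 18 called genes tracked with Hira over 11 settings, none changed direction. All 18 lost the call without either labelled WT library, 7 with limma and 1 under the block. Over all genes higher calls prevailed in every fit that kept all libraries, but among covered genes DESeq2, limma, the block and the fit without a filter called more lower than higher. The cause was not tested. Same-numbered RNA libraries were hardly related in their deviations (r = 0.0609 across genes, 2 pairs), so they share only a number, and the replicate block is not read as a paired test.

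Bases called open were compared under alternatives chosen after seeing the data. A library left out there was left out of the comparison only, and the members stayed the same. Counts with fewer bases in both labelled Hira KO lists ranged from 624 to 1907 (all wide regions; 1907 without labelled WT 2, 1303 without labelled Hira KO 1) and from 167 to 265 (inside genes; 265 without labelled WT 2) when a library was left out. Peak lists carry no depth, so a shorter interval and a shallower library cannot be separated.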
